A study of Mus musculus with 4 samples.

Results

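The 8 genes described here mark oligodendrocytes and their precursors or belong to the myelin sheath. They are Olig1, Olig2, Pdgfra, Cspg4, Mbp, Mag, Cnp and Pmp22, out of 18193 genes with a named probe set on the array. Members were chosen by gene symbol, and every probe set annotated to that symbol alone was used, which gave 20 probe sets. RNA was measured on Affymetrix mouse arrays in 4 groups with 1 array each: FoxO6-/- mandible and maxilla, WT mandible and maxilla, FoxO6-/- brain and WT brain. In the FoxO6-/- allele a LacZ and neomycin resistance cassette stands in place of the whole FoxO6 coding region, in mice kept on a C57BL/6 background. The labels give postnatal day 0 for all 4 arrays. The paper gives a late embryonic stage for mandible and maxilla. Each mandible and maxilla array held pooled RNA of 4 animals, and the methods mention heterozygous beside null animals among the mutants, so that the genotype of this pool may be mixed. Pooling is not stated for brain. No probe set is named for FoxO6, so the genotype labels could not be checked against the deleted gene. FoxO6 is a forkhead transcription factor, and the comparison asks which genes differ where it has been deleted.

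Myelin is the lipid-rich membrane that wraps axons. In the central nervous system it is made by oligodendrocytes, which arise from precursors that carry the receptor Pdgfra and the proteoglycan Cspg4 (NG2) and need the transcription factors Olig1 and Olig2. In peripheral nerves, such as the trigeminal branches that run through the jaws, it is made by Schwann cells, a neural crest lineage with its own regulators. Mbp, Mag and Cnp are used by both kinds of glia, whereas Pmp22 is chiefly a Schwann cell myelin gene. In mice most myelin forms after birth. Pdgfra is also a receptor of craniofacial mesenchyme, Cspg4 a marker of pericytes and Pmp22 a gene of many mesenchymal and epithelial cells.

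The sequences just upstream of 3 members are shown because these genes stand for the roles separated here: an oligodendrocyte lineage regulator (Olig2), a myelin gene of both glia (Cnp) and the Schwann cell myelin gene (Pmp22). Each is the stretch of 250 bases before an annotated RefSeq start on assembly GRCm38.p6, plus strand, and lies outside the transcript.
Olig2, chr16:91225300-91225549: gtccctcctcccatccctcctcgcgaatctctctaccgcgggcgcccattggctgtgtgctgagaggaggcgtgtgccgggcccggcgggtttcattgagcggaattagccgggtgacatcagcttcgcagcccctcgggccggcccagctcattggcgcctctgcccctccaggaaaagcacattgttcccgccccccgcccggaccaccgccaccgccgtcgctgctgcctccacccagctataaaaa
Cnp, chr11:100574689-100574938: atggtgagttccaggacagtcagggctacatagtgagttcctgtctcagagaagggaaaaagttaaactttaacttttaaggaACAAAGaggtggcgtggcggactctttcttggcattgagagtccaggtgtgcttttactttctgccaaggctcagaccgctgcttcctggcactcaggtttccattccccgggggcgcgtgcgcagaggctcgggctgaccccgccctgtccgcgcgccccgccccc
Pmp22, chr11:63128732-63128981: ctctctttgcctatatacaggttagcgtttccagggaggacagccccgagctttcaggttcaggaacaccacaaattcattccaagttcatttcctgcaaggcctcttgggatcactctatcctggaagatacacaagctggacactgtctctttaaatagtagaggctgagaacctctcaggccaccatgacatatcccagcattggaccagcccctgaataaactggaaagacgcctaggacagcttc
Capitals in the Cnp sequence mark ACAAAG, the core letters bound by SOX proteins such as Sox10, which begins 167 bases before the start. Windows were found for 6 of the 8 genes (all but Olig1 and Mbp), 11 windows in all. On either strand ACAAAG was in 3 of the 11, the one of Cnp and 2 overlapping ones of Mag, and in 16.5% of all 32851 windows. The forkhead letters GTAAACA were in 0 of the 11 windows and in 3.17% of all windows. A match is a description of the letters and not a bound site. The window shown for Olig2 held 66.8% G and C bases, that for Cnp 57.2% and that for Pmp22 48.8%. Pmp22 has further annotated starts, and the windows before those held 61.2%, 64.8% and 73.6%. Olig1 and Olig2 are neighbours on chromosome 16, in the order 4932438H23Rik, Olig2, Olig1, Ifnar2.

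Signals are MAS5 intensities, scaled so that the trimmed mean of every array is 500.0. Signals under a floor of 101, the median over all arrays, were taken as too low to compare, because MAS5 ratios scatter widely there. Before the members, the tissue labels were checked against markers. The 15 neuron genes were in sum 9.48-fold higher in WT brain than in WT mandible and maxilla and 17.8-fold higher in the FoxO6-/- pair. Of the 15, 10 were at or above the floor in FoxO6-/- mandible and maxilla and 12 in WT. Some therefore entered the tissue test described below only through their brain signals. In that test 14 of the 15 passed. All 11 craniofacial mesenchyme genes were nevertheless at or above the floor on all 4 arrays, and their summed signal in brain was 0.829 of that in mandible and maxilla for WT and 0.696 for FoxO6-/-. Col3a1, a collagen of connective tissue, read 29133 in WT brain and 30246 in WT mandible and maxilla. The arrays labelled brain therefore carried both neural and mesenchymal RNA, and with these samples central and peripheral myelin could not be cleanly separated by tissue. In such bulk RNA, fewer cells of a type and less RNA per cell cannot be told apart. The FoxO6-/- mandible and maxilla array also had a higher ratio of 3' to 5' probe sets for Actb, 3.37 against 2.21 to 2.23 on the other 3 arrays, a sign of shorter RNA or cDNA.

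Olig1, which drives the maturation of oligodendrocyte precursors, had the largest genotype difference among the members that could be compared. Its only probe set read 28.3 in FoxO6-/- mandible and maxilla, 259 in WT mandible and maxilla, 1586 in FoxO6-/- brain and 1150 in WT brain. Olig1 was thus brightest in both brains, lower in WT mandible and maxilla, and below the floor only in FoxO6-/- mandible and maxilla. In WT it was 4.45-fold higher in brain than in mandible and maxilla. Between the mandible and maxilla arrays the measured signals differed by 9.15-fold, a log2 ratio of -3.19. With the FoxO6-/- signal set to the floor, WT was at least 2.57-fold higher. In brain the FoxO6-/- signal was 1.38-fold that of WT, a log2 ratio of 0.46. With 1 array per group neither ratio has a test.

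Olig2, which specifies the lineage from neural progenitors, showed the same order over the 4 arrays at low signals. It read 14.6 in FoxO6-/- mandible and maxilla, 123 in WT mandible and maxilla, 198 in FoxO6-/- brain and 174 in WT brain. The mean of the mandible and maxilla arrays was 69.0, below the floor, so Olig2 did not enter the comparison of genotypes there. WT was at least 1.23-fold higher than FoxO6-/- once the latter was set to the floor. In brain FoxO6-/- exceeded WT by a log2 ratio of 0.19.

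Pdgfra, the receptor for PDGF-A on oligodendrocyte precursors, was high on all 4 arrays. The brightest of its 3 probe sets read 5072 in FoxO6-/- mandible and maxilla, 4894 in WT mandible and maxilla, 3911 in FoxO6-/- brain and 3211 in WT brain. Unlike Olig1, Pdgfra was higher in mandible and maxilla than in brain, 1.52-fold in WT and 1.30-fold in FoxO6-/-. The second probe set read 293, 328, 201 and 142 on the same arrays in that order, and the third 162, 186, 105 and 77.7. Both put the mandible and maxilla arrays above the brain arrays too. Log2 ratios of FoxO6-/- over WT were 0.05, -0.16 and -0.20 for the 3 probe sets in mandible and maxilla, and 0.28 and 0.50 for those that entered the comparison in brain.

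Cspg4, the NG2 proteoglycan of precursors and pericytes, differed little between the 4 arrays. Its brighter probe set read 1191 in FoxO6-/- mandible and maxilla, 1251 in WT mandible and maxilla, 1079 in FoxO6-/- brain and 897 in WT brain. The other read 412, 723, 447 and 504. The probe sets disagreed in size on the genotype difference in mandible and maxilla, with log2 ratios of -0.07 and -0.81, and in sign in brain, with 0.27 and -0.18. The difference of 2 probe sets of one gene in this ratio had an SD of 0.415 in mandible and maxilla and 0.392 in brain over 4927 genes. It measures how far 2 readings of one gene lie apart and does not include differences between animals.

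**Figure D1:**
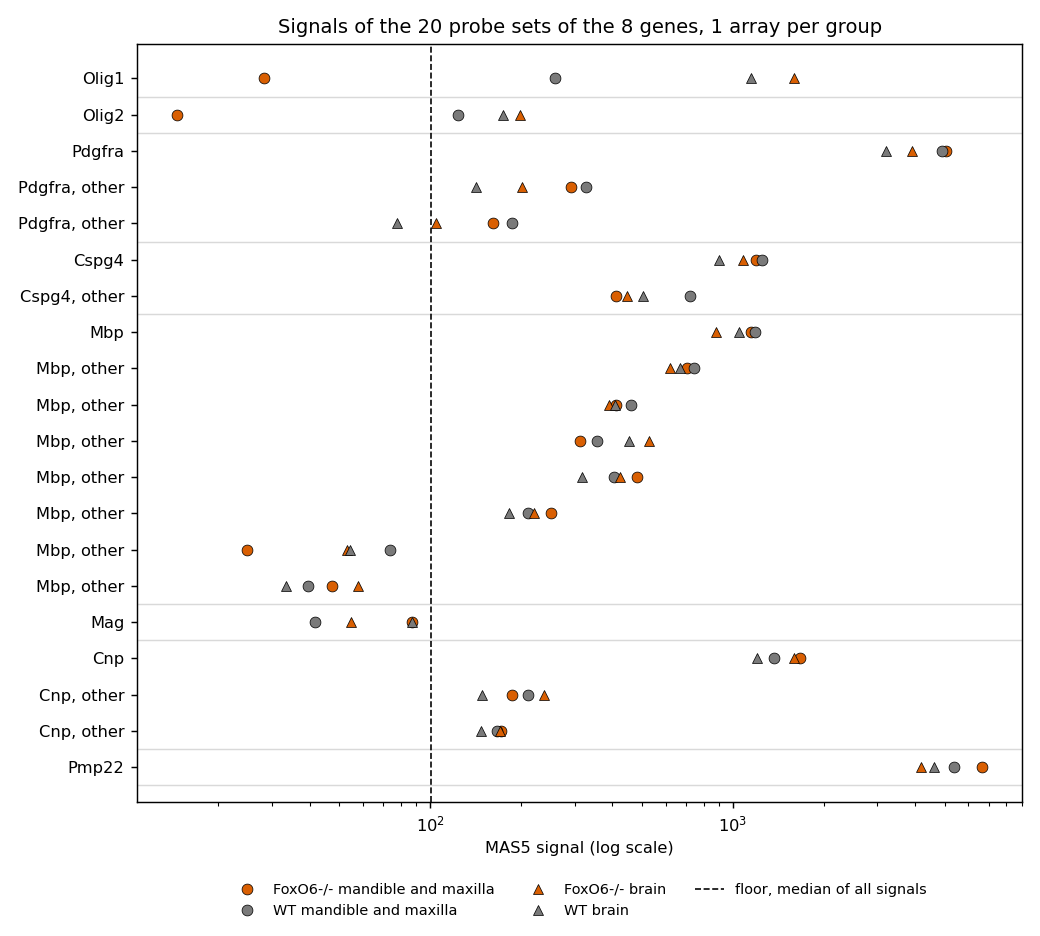
MAS5 signal (log scale) of each of the 20 probe sets on the 4 arrays, with circles for mandible and maxilla, triangles for brain, orange for FoxO6-/- and grey for WT; each point is 1 array and the dashed line is the floor of 101. Olig1 spans 28.3 to 1586, whereas the brightest probe set of Pmp22 spans 4170 to 6660 with both brain arrays lowest.

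The myelin genes were read on both tissues, apart from Mag, and brain was not the brighter tissue for them. Mbp, the protein that compacts the myelin membrane, has 8 probe sets, of which 6 entered the comparisons and 2 were below the floor on all 4 arrays. The brightest read 1148 in FoxO6-/- mandible and maxilla, 1185 in WT mandible and maxilla, 882 in FoxO6-/- brain and 1046 in WT brain. One of the 6 went the other way between tissues, with 314 and 355 in mandible and maxilla against 528 and 452 in brain for FoxO6-/- and WT. Probe sets of Mbp can read different transcripts of the gene, which also encodes the Golli proteins found outside myelin. Between genotypes the 6 probe sets lay between -0.18 and 0.25 in mandible and maxilla, 2 higher and 4 lower, and between -0.25 and 0.41 in brain, 3 higher and 3 lower. All those of mandible and maxilla were within 1 SD of the difference between probe sets.

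Mag, an adhesion protein of the membrane next to the axon, has 1 probe set, which read 86.9 in FoxO6-/- mandible and maxilla, 41.6 in WT mandible and maxilla, 54.6 in FoxO6-/- brain and 87.3 in WT brain. It was below the floor on all 4 arrays and is compared nowhere. Cnp, an enzyme of the cytoplasmic channels of myelin, read 1667 in FoxO6-/- mandible and maxilla, 1367 in WT mandible and maxilla, 1596 in FoxO6-/- brain and 1203 in WT brain with the brightest of 3 probe sets. The FoxO6-/- signal was the higher in both tissues, with log2 ratios of 0.29, under 1 SD of the difference between probe sets, and 0.41, just over it. The other probe sets read much lower, at 187, 210, 238 and 148 and at 171, 167, 170 and 147 on the same arrays in that order. They gave -0.17 and 0.04 in mandible and maxilla and 0.69 and 0.21 in brain, so the sign in mandible and maxilla was not shared. The gene value of Cnp thus rests on a probe set far brighter than its others.

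Pmp22, a membrane protein of compact peripheral myelin, read 6660 in FoxO6-/- mandible and maxilla, 5388 in WT mandible and maxilla, 4170 in FoxO6-/- brain and 4609 in WT brain with its only probe set. It was 1.17-fold higher in mandible and maxilla than in brain in WT and 1.60-fold in FoxO6-/-. FoxO6-/- against WT gave a log2 ratio of 0.31 in mandible and maxilla and -0.14 in brain, both smaller than 1 SD of the difference between probe sets. That SD describes the difference of 2 ratios and not the error of 1 ratio, and with 1 array per group neither ratio of Pmp22 has a test.

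Counted by gene, with the brightest probe set for each, 6 of the 8 members entered the comparison of genotypes in mandible and maxilla. Of these 1, Olig1, was at least 2-fold lower in FoxO6-/- and 0 were at least 2-fold higher, where 1.69% and 0.591% of all 12186 genes were so. Olig1 entered only through its WT signal of 259, since its FoxO6-/- signal of 28.3 was below the floor. With that signal set to the floor its log2 ratio was -1.36. The median log2 ratio of the 6 was 0.00, and that of all genes -0.01. In brain 7 members entered, 0 were past 2-fold in either direction, and their median was 0.27 beside 0.05 for all 12327 genes, of which 2.03% were 2-fold lower and 1.13% higher. The balance of these calls moved with the scaling: 25.9% of the 2-fold calls in mandible and maxilla and 35.7% of those in brain were higher as deposited, 43.0% and 40.4% after quantile normalization, and 48.1% and 52.1% after median centring, which moved the median of all genes to 0.13 and 0.20. By probe set, 6 were higher and 10 lower of the 16 that entered in mandible and maxilla, and 11 were higher and 5 lower of 16 in brain.

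**Figure D2:**
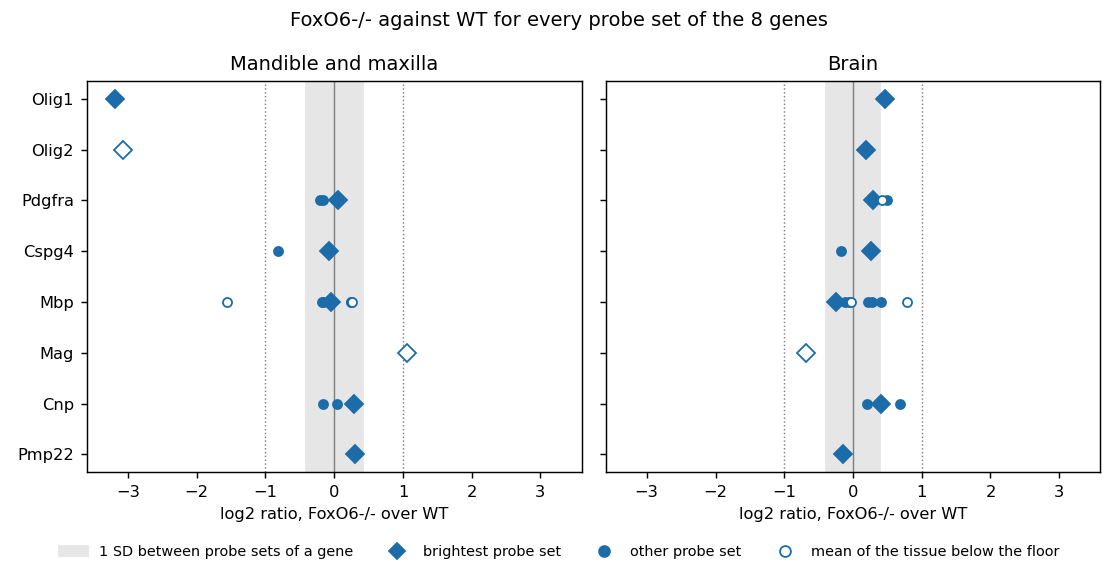
Log2 ratio of FoxO6-/- over WT for every probe set of the 8 genes in mandible and maxilla (left) and brain (right), with diamonds for the brightest probe set, open symbols where the mean of the tissue is below the floor, a grey band of 1 SD of the difference between probe sets of a gene and dotted lines at 2-fold. Among filled symbols only Olig1 at -3.19 in mandible and maxilla is past 2-fold.

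Whether the tissues differed was tested with limma on all 4 arrays, with tissue and genotype as terms, so that the genotypes stand in for replicates of a tissue and 1 residual degree of freedom is left. Over 12569 genes 8.73% were higher in brain and 6.48% higher in mandible and maxilla at an adjusted p under 0.05. Genes entered by the mean of all 4 arrays, so a gene below the floor in 1 tissue could enter through the other. The adjusted p of such a gene rests in part on signals too low to compare. Of the 7 members tested 0 passed in either direction, with 2 at an unadjusted p under 0.05. Olig1 was 3.98 log2 units higher in brain (SE 1.0, limma adjusted p = 0.0929), and the unequal genotype difference of the tissues counts as error in that SE. With tissue as the only term and without the FoxO6-/- mandible and maxilla array the difference was 2.38. Without the WT one it was 5.58, which rests on the FoxO6-/- signal of 28.3, below the floor. Each of these fits has a single mandible and maxilla array, so only the size of the difference is given. Olig2 differed by 2.13 (SE 0.898, limma adjusted p = 0.211). Pdgfra was 0.49 log2 units lower in brain by estimate (-0.49, SE 0.159, limma adjusted p = 0.141).

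The myelin genes differed between tissues by less. Brain minus mandible and maxilla was -0.28 for Mbp (SE 0.156, limma adjusted p = 0.303), -0.12 for Cnp (SE 0.150, limma adjusted p = 0.613) and -0.45 for Pmp22 (SE 0.190, limma adjusted p = 0.211). That of Cspg4 was -0.31 (SE 0.172, limma adjusted p = 0.302). All 4 estimates lean to mandible and maxilla, but none was separable from 0 in this fit. In the same fit the genotype term over both tissues called 0 of 7 members and 0% of all genes, with 588 genes but 0 members at an unadjusted p under 0.05. The member nearest to the limit was Cnp with 0.35 (SE 0.150, limma adjusted p = 0.902), while Olig1 had -1.37 (SE 1.0, limma adjusted p = 0.902).

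Other genes of the lineage put the 8 in context. Of 17 listed oligodendrocyte precursor genes 15 have a named probe set and 13 were tested between tissues. Of these 2 were higher in brain and 0 higher in mandible and maxilla, where 8.73% and 6.48% of all genes were so. Lhfpl3, a membrane protein of precursors, read 550 and 396 in FoxO6-/- and WT brain against 54.4 and 39.5 in mandible and maxilla, a difference of 3.33 (limma adjusted p = 0.00857). Cspg5, neuroglycan C, read 994 and 733 in brain against 131 and 91.0, a difference of 2.96 (limma adjusted p = 0.00859). Lhfpl3 was below the floor on both mandible and maxilla arrays and Cspg5 on the WT one, so with those signals set to the floor brain was at least 4.64-fold and 7.42-fold higher. The adjusted p of each was computed on the measured signals, in part too low to compare. Sox10, the SOX factor of both myelinating lineages, read 187 in FoxO6-/- mandible and maxilla, 254 in WT mandible and maxilla, 187 in FoxO6-/- brain and 316 in WT brain. It was lower in FoxO6-/- in both tissues, by log2 ratios of -0.45 and -0.76, with a limma adjusted p of 0.902 over both.

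Between genotypes 12 precursor genes entered in mandible and maxilla, 8 lower and 4 higher, with a median log2 ratio of -0.15. The 1 past 2-fold was Sox5, a SOX factor of precursors and also of cartilage, at 112 in FoxO6-/- and 233 in WT (-1.05). In brain 11 of 13 were higher, with a median of 0.33, where 7061 of all 12327 genes were higher with a median of 0.05. The 1 precursor gene past 2-fold in brain was Matn4, an extracellular matrix protein used as a marker of precursors, at 1026 in FoxO6-/- and 406 in WT (1.34). In mandible and maxilla it had -0.18.

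Among committed and myelinating oligodendrocyte genes some were read and others were not. Of 26 listed 23 have a named probe set, and 4 of these (17.4%), Mog, Mobp, Gjb1 and Opalin, were below the floor on all 4 arrays like Mag, where 26.7% of all genes were. Between tissues 16 were tested and 1 passed in each direction, where 8.73% of all genes were higher in brain and 6.48% higher in mandible and maxilla. Nfasc, which links the sheath to the axon but is also a neuronal gene, read 274 and 228 in FoxO6-/- and WT brain against 41.9 and 56.3 in mandible and maxilla, both below the floor (2.36, limma adjusted p = 0.0193), at least 2.48-fold higher. Fa2h, which hydroxylates myelin lipids and also acts in skin, was higher in mandible and maxilla, with 227 and 352 against 82.8 and 101 (-1.63, limma adjusted p = 0.0209). In mandible and maxilla 15 entered the comparison of genotypes, 9 lower and 6 higher, with a median of -0.08. The 1 past 2-fold was Ermn, a cytoskeletal protein of late oligodendrocytes, at 25.4 in FoxO6-/- and 201 in WT. With the FoxO6-/- signal set to the floor, the ratio lay just under 2-fold and 0 of the list were past it, and in brain Ermn, at 117 and 30.6, had a mean below the floor. In brain 16 entered with a median of 0.08, and Aspa, the enzyme that cleaves N-acetylaspartate, was the 1 past 2-fold at 124 in FoxO6-/- and 318 in WT (-1.36).

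Schwann cell genes were read on both tissues. Of 24 listed 21 have a named probe set and 19 were tested between tissues. Of these 4 were higher in mandible and maxilla and 5 higher in brain, where 6.48% and 8.73% of all genes were so. The 4 include Egr2, the transcription factor that turns on peripheral myelin genes, at 443 and 319 in FoxO6-/- and WT mandible and maxilla against 139 and 123 in brain (-1.52, limma adjusted p = 0.0220). They also include Erbb3, the neuregulin receptor of Schwann cells, at 2522 and 2327 against 1091 and 988 (-1.22, limma adjusted p = 0.0254). The others were Itgb4 and Mpzl2, both also genes of epithelia. The 5 higher in brain were Pou3f1, Cadm4, L1cam, Ncam1 and Fabp7, of which the last 3 are also genes of neurons or radial glia. The direction of Egr2 and Erbb3 was that of the estimate for Pmp22, which did not pass. The 5 genes higher in brain went the other way, among them Pou3f1 (1.05, limma adjusted p = 0.0325) and Cadm4 (1.73, limma adjusted p = 0.0188).

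Between genotypes 19 Schwann cell genes entered in mandible and maxilla, 12 lower and 7 higher, with a median log2 ratio of -0.14. Fabp7 (452 in FoxO6-/-, 1361 in WT, -1.59) and Ncmap, a protein of noncompact myelin (172 in FoxO6-/-, 383 in WT, -1.15), were 2-fold lower. Egr2 had 0.48 and Erbb3 0.12. In brain 15 of 18 were higher, with a median of 0.23, where 7061 of all 12327 genes were higher with a median of 0.05. Gfra3, a receptor of sensory neurons and Schwann cell precursors (203 in FoxO6-/-, 76.5, below the floor, in WT, at least 2.01-fold higher), and Ncmap (326 in FoxO6-/-, 154 in WT, 1.08) were 2-fold higher in brain.

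Of the signals that control the lineage, none that entered was past 2-fold between genotypes, a count that the low share of such genes on the array would also give. Of 16 mitogens and receptors 14 entered in each tissue, with medians of 0.07 and 0.22. The log2 ratios farthest from 0 were in brain, -0.83 for the ligand Pdgfb (157 in FoxO6-/-, 280 in WT) and 0.65 for Shh (1128 in FoxO6-/-, 721 in WT). Pdgfa, the ligand of Pdgfra, read 2926 in FoxO6-/- mandible and maxilla, 2611 in WT mandible and maxilla, 2065 in FoxO6-/- brain and 2171 in WT brain. Like its receptor it was bright on all 4 arrays. Erbb2, the partner of Erbb3, and Fgfr1 were higher in mandible and maxilla by the tissue test, with differences of -1.04 (limma adjusted p = 0.0335) and -0.84 (limma adjusted p = 0.0495). Of 12 inhibitors of oligodendrocyte differentiation 9 entered in mandible and maxilla and 11 in brain, with medians of 0.08 and 0.18. Bmp4, a ligand that turns precursors away from the lineage, had the ratio farthest from 0, at 452 in FoxO6-/- and 736 in WT mandible and maxilla (-0.70). Hes5, a Notch target, Lingo1 and Id4 were higher in brain (limma adjusted p = 0.0214, 0.00921 and 0.0498). Hes5 and Lingo1 were below the floor on both mandible and maxilla arrays, which makes brain at least 5.73-fold and 4.97-fold higher, and Id4 differed by 1.07.

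**Figure D3:**
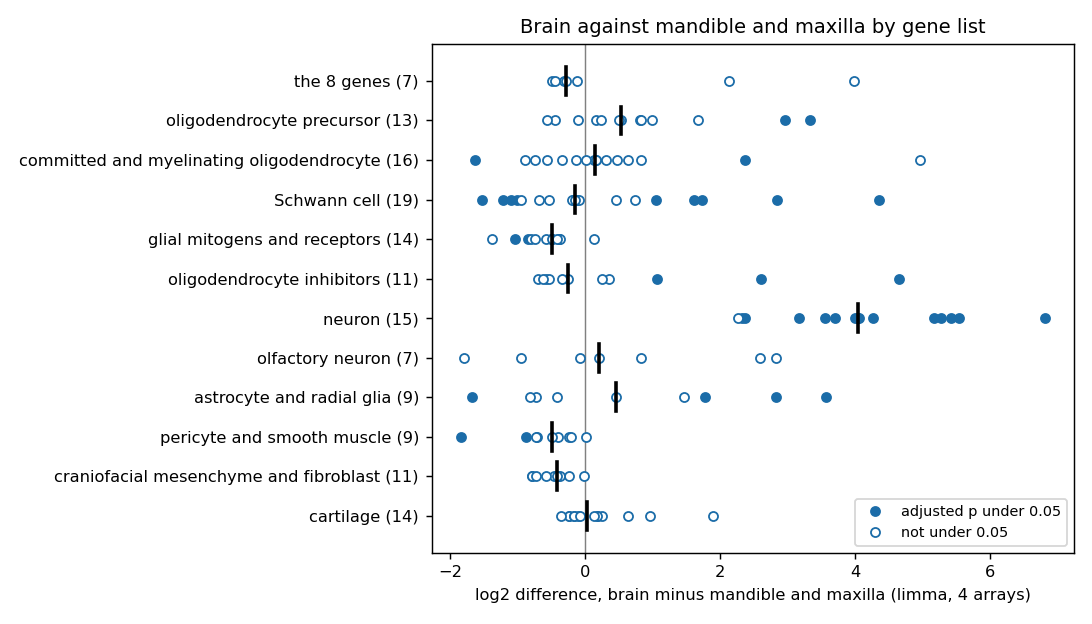
Log2 difference of brain minus mandible and maxilla from limma over 4 arrays, by gene list, with filled points at an adjusted p under 0.05, black bars at the median of each list and the number of genes tested in brackets. The neuron genes lie between 2.26 and 6.81 with 14 of 15 filled, whereas the 8 genes have no filled point and only Olig1 and Olig2 lie above 0. Some filled neuron genes were below the floor in mandible and maxilla.

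Markers of other cells moved between the mandible and maxilla arrays beside Olig1. All 11 neuron genes that entered were lower in FoxO6-/- as measured, 3 of them 2-fold, or 2 with signals below the floor set to it, with a median log2 ratio of -0.85. Measured ratios were lowest for Elavl3 (127 in FoxO6-/-, 433 in WT, -1.77) and Snap25 (63.4, below the floor, in FoxO6-/- and 197 in WT, so at least 1.96-fold higher in WT), and highest for Gap43 (-0.36) and Map2 (-0.03). Of 8 olfactory neuron genes 7 were 2-fold lower, with a median of -1.41, from Gng13 (-2.58) and Neurod1 (-2.38) to Stoml3 (-1.18), while Adcy3 had 0.35. All 14 cartilage genes were lower, 6 of them 2-fold, with a median of -0.89, from Matn1 (-2.10) and Col9a3 (-1.40) to Comp and Cnmd (both -0.29). Summed signals over each list were 4570 in FoxO6-/- and 6914 in WT for neurons, 2330 and 5520 for olfactory neurons and 37742 and 59585 for cartilage. The part of these cells in the difference of Olig1 was not tested.

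Lists closer to the other members moved less there. The median was -0.04 for 9 astrocyte and radial glia genes, with Aldoc (-0.99) and Aqp4 (-0.90) lowest and Slc1a3 (0.38) and Hopx (0.53) highest. It was -0.19 for 9 pericyte genes, with Rgs5 (-0.39) and Tagln (-0.39) lowest and Acta2 (0.09) and Kcnj8 (0.17) highest. Among 11 craniofacial mesenchyme genes, the cells that share Pdgfra, it was 0.24, with Lum (0.54) and Col3a1 (0.41) highest and Col1a1 (-0.08) and Fap (0.02) lowest. In brain the order differed: neuron genes had a median of 0.36, olfactory 0.47 and cartilage 0.76, where 13 of 14 were higher and 3 were 2-fold so. None of the members was past 2-fold in brain, and whether these shifts have a part in their values was not tested.

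**Figure D4:**
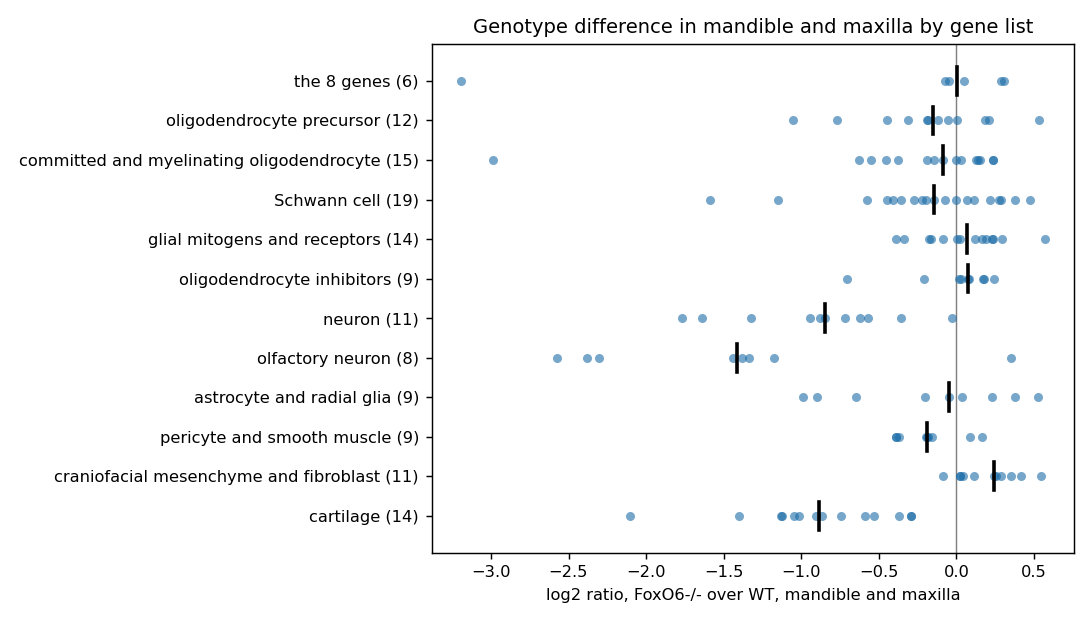
Log2 ratio of FoxO6-/- over WT in mandible and maxilla by gene list, with 1 point per gene that entered, black bars at the median and the number of genes in brackets. Of the 8 genes 6 entered, with Olig1 at -3.19, or -1.36 with its FoxO6-/- signal set to the floor, and the other 5 between -0.07 and 0.31. Olig2, at 14.6 in FoxO6-/- and 123 in WT, and Mag did not enter and are not drawn. The neuron, olfactory neuron and cartilage lists lie below 0 except for Adcy3 of the olfactory list at 0.35, with medians of -0.85, -1.41 and -0.89.

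The genes whose pattern over the 4 arrays was nearest to that of Olig1, by the Euclidean distance of log2 signals centred on each gene, were Mdga2 (0.386), Vps13c, Kcnc2, Kalrn and Gdap1l1 (0.529). Kalrn, a guanine nucleotide exchange factor of neurons, read 12.1 in FoxO6-/- mandible and maxilla, 125 in WT mandible and maxilla, 1016 in FoxO6-/- brain and 743 in WT brain. All 5 were below the floor in FoxO6-/- mandible and maxilla, as Olig1 was, but all except Kalrn were below it in WT mandible and maxilla too, so their likeness to Olig1 rests in part on signals too low to compare. Nearest to Pmp22 were Gpr65 (0.0318), Zfp825, Penk, Pias4 and Srpk1 (0.0367). These distances rest on 4 arrays and describe likeness of pattern only.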

How the data were processed

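The authors pooled RNA of 4 animals for each mandible and maxilla array, hybridised GeneChip mouse arrays, normalized with MAS5 and used limma. The deposited values are MAS5 signals, an intensity per probe set that is not on a log scale, and no MAS5 version is named in the labels or methods. The labels and the methods name different RNA extraction kits. Of 45101 probe sets 64 are controls, 34945 have 1 gene, 932 several and 9160 none. Symbols came from the platform table, with 34741 matched by Entrez ID to RefSeq GRCm38.p6 and 0 changed. The data name no genome build, and the coordinates and sequences are RefSeq's.

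No further normalization was applied. A gene took its brightest probe set (by the mean of the 4 arrays) and entered a comparison where the mean of the compared signals reached the floor. Log2 ratios within a tissue have no test. The tissue and genotype terms came from limma 3.58.1 in R 4.3.3 (lmFit, eBayes, two-sided) on log2 signals, with Benjamini-Hochberg adjustment over 12569 genes. The number of arrays limits the precision, and adjusted p-values measure only the spread between these 4. For each gene eBayes drew that spread towards the one of all genes, with 2.40 prior degrees of freedom beside 1 residual. The procedure was also run on simulated data that held differences between tissues only. Genotype differences that are unequal between tissues, as for Olig1, were not simulated. Python 3.11.15, numpy 2.4.6 and pandas 2.3.3 were used for the rest.

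The members and gene lists were chosen with earlier results of these data known. Named genes are the 8 members, any gene of the precursor, oligodendrocyte, Schwann cell, mitogen and inhibitor lists, the 2 highest and 2 lowest ratios in mandible and maxilla from every other list, and the 5 genes nearest to Olig1 and Pmp22. Beyond this rule Col3a1 in the tissue check was chosen after its values were seen. Alternatives changed the scaling (quantile, median centring), the floor (none, 524 as the 75th percentile, or signals under it set to it) and the gene value (mean of probe sets, gene-specific probe sets). Others added a variance trend, single-term fits and single-term fits without each array in turn. Every named probe set on its own was added after seeing the data.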

Additional observations from a re-analysis of the deposited data

Results flagged for a closer look

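Among the 72 members and genes of the 5 glial lists that entered both tissues, 6 (8.33%) were past 2-fold in FoxO6-/- in one tissue and on the other side of WT in the other tissue. The same was seen for 257 of 11494 genes in all (2.24%). Among them were the cartilage gene Matn1 (-2.10 and 1.37) and the neuronal gene Elavl3 (-1.77 and 0.15), so the pattern also occurred outside the glial lists. The lists were chosen with earlier results of these data known, and the difference between the shares was not tested. With 1 array per group none of these differences between tissues was tested. Olig1 had a log2 ratio of -3.19 in mandible and maxilla and 0.46 in brain. Fabp7, a lipid carrier of radial glia and Schwann cell precursors, had -1.59 and 0.35, and Sox5 had -1.05 and 0.33. Ncmap was past 2-fold in both, at -1.15 and 1.08. Matn4 had -0.18 in mandible and maxilla and 1.34 in brain, and Aspa 0.24 and -1.36. Neuron and cartilage genes had medians of -0.85 and -0.89 in mandible and maxilla and 0.36 and 0.76 in brain on the same arrays.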

How the results depend on the processing

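Under no floor 2 members were 2-fold lower and 1 2-fold higher in mandible and maxilla, since Olig2 and Mag then entered, and with a floor at the 75th percentile 0 were lower, since Olig1 no longer entered. The log2 ratio of Olig1 there was -1.36 with low values raised to the floor. That of Cnp was -0.17 with gene-specific probe sets, where another of its probe sets took the place of the brightest. In the tissue test 1 member, Olig1, was called higher in brain with a variance trend (limma adjusted p = 0.0316) and with low values raised to the floor (3.07, limma adjusted p = 0.0157). Fits without 1 array kept tissue as the only term and left 1 group as a lone array, assumed to vary like the others. Only their differences are given. That of Olig1 ran from 2.38 to 5.58 and that of Olig2 from 0.59 to 3.67. Both were lowest without FoxO6-/- mandible and maxilla and highest without WT mandible and maxilla. Over the alternatives that kept all 4 arrays the limma adjusted p of Olig1 ran from 0.0157 to 0.261. With 1 array left out the difference of Cnp ran from -0.33 to 0.080, turning without the FoxO6-/- mandible and maxilla array and without the WT brain array. For the genotype term over both tissues no member was called under any alternative that kept all 4 arrays. With 1 array left out the fit had no tissue term, so its difference mixes genotype with tissue. Its sign then turned for 6 members. The ranges were -4.27 to 1.54 for Olig1, -3.32 to 0.44 for Olig2 and -0.14 to 0.47 for Pdgfra. They were -0.14 to 0.34 for Cspg4, -0.34 to 0.044 for Mbp and -0.26 to 0.42 for Pmp22. Olig1 and Olig2 turned without FoxO6-/- mandible and maxilla, where FoxO6-/- brain is set against WT brain and WT mandible and maxilla together. The mean of probe sets turned Cspg4 to -0.20 and Mbp to 0.043. No paired analysis was possible because each group has 1 array. Low signals of Olig1 and Olig2 in mandible and maxilla limit what their ratios show.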
